A study of Mus musculus with 12 samples.

Results

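The genes of the mitochondrial respiratory chain and ATP synthase were followed through 3 successive stages of early thymocyte development. Members were the genes whose single symbol in the platform annotation began with Nduf, Uqcr, Cox4 to Cox8 or Atp5, or was Sdha, Sdhb, Sdhc or Sdhd, each represented by the brightest of its probe sets (highest mean signal). The rule gave 90 of 18193 genes, of which 86 passed the filter on dim genes and were tested. Complex I had 44 members (43 tested), complex II 4 (4 tested), complex III 8 (8 tested), complex IV 17 (14 tested) and complex V, the ATP synthase, 17 (17 tested). The symbols took in 79 subunits, 8 assembly factors of complex I (Ndufaf1 to Ndufaf8), and Ndufa4, Ndufa4l2 and Cox7a2l, whose names do not match a place in the complex that carries them. Subunits whose probe sets carried several symbols or none were not analysed here.

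Complexes I to IV of the inner mitochondrial membrane pass electrons from NADH and succinate to oxygen and, apart from complex II, pump protons across the membrane, and ATP synthase uses that gradient to make ATP. Nearly all of their subunits are encoded in the nucleus and imported, while a small set is encoded in mitochondrial DNA. In the thymus, precursors that lack CD4 and CD8 divide, rearrange the T cell receptor beta gene and pass beta-selection between the DN3 and DN4 stages, and their energy demand is known to vary along this path.

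Thymocytes came from female C57BL/6 mice 5 to 6 weeks old, with no genetic change or treatment named by the submitters. In each of 4 independent sorts, cells of 4 mice were pooled, depleted of CD4+ and CD8+ cells, gated as negative for CD3, CD4, CD8, TCRgamma-delta and NK1.1, and separated into DN2 (CD44+ CD25+), DN3 (CD44- CD25+) and DN4 (CD44- CD25-). All 3 stages of a sort shared 1 source of cells, and each gave 1 array, so every stage had n = 4. DN4 was defined by the absence of every stained marker, and an array averages all cells in its gate.

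The 12 arrays had median signals of 15.2 to 28.0 before normalization, and their values correlated at 0.969 to 0.985 within a stage. Of the sort markers, Cd44 and Il2ra (CD25) followed the gates. Cd44 had mean log2 levels of 9.44, 5.75 and 5.62 in the order DN2, DN3, DN4, and Il2ra had 11.20, 10.46 and 6.90. The Cd3e transcript lay above the filter on all 12 arrays (8.80, 9.67 and 8.96), although the gate excluded CD3. Summed signals of the mast, NK and myeloid lists were highest in DN2. The mast cell list (Cpa3, the only 1 of 4 tested) had summed signals of 2729 to 3771 in DN2, 65.8 to 218 in DN3 and 32.7 to 67.0 in DN4, and the NK list (2 tested of 4 on the array) had 1573 to 1819, 417 to 731 and 93.6 to 114. The NK sum followed Nkg7 (mean log2 10.68, 9.08 and 6.24), while Prf1 was highest in DN3 (4.69, 5.32 and 4.64) and Ncr1 and Eomes did not pass the filter. The myeloid list (4 of 7 tested) had 275 to 680, 120 to 223 and 76.9 to 183. Within it Lyz2 fell (mean log2 7.60, 6.14 and 5.06), while Csf1r went the other way (5.32, 5.62 and 5.75) and was not called. S100a8 and S100a9 were tested and not called, and their highest DN2 values, 8.10 and 6.77, came from sort 4. The dendritic list (3 of 5 tested) had 270.5 to 604.8, 141.9 to 276 and 166.4 to 696. Although the gate excluded CD8, Cd8a and Cd8b1 reached means of 7.28 and 8.28 in DN4, against 3.78 and 3.14 in DN2. The B cell list (3 of 4 on the array tested) had 200 to 258, 174 to 224 and 143 to 195. Within it Cd79b lay above the filter on all 12 arrays and was lower in DN4 than in DN2. Ms4a1 was dim (mean log2 4.73, 3.63 and 4.94) and rose from DN3 to DN4 (1.31, limma adjusted p = 0.0266). Pax5, also dim (4.54, 4.51 and 4.09), was not called. Cd79a, Cd4 and Hba-a1 did not pass the filter. The part of these cells in the differences below was not tested, and in bulk samples fewer cells of a type and less RNA per cell cannot be told apart.

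Across the whole set, the median level was lowest in DN2 and highest in DN4, by small amounts. Each gene's log2 values were set against that gene's mean over the 12 arrays, and the median of these deviations over the 86 genes was -0.12, -0.13, -0.08 and -0.14 in the DN2 samples of sorts 1 to 4. It was 0.05, 0.00, -0.04 and -0.01 in DN3, and 0.18, 0.09, 0.16 and 0.07 in DN4. The 3 stages did not overlap on this measure, whereas the same median over all 11176 genes tested ranged only from -0.03 to 0.04 over the 12 arrays. Mean levels were lowest in DN2, intermediate in DN3 and highest in DN4 for 56 of the 86 genes (65.1%), against 30.1% of all genes tested.

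**Figure D1:**
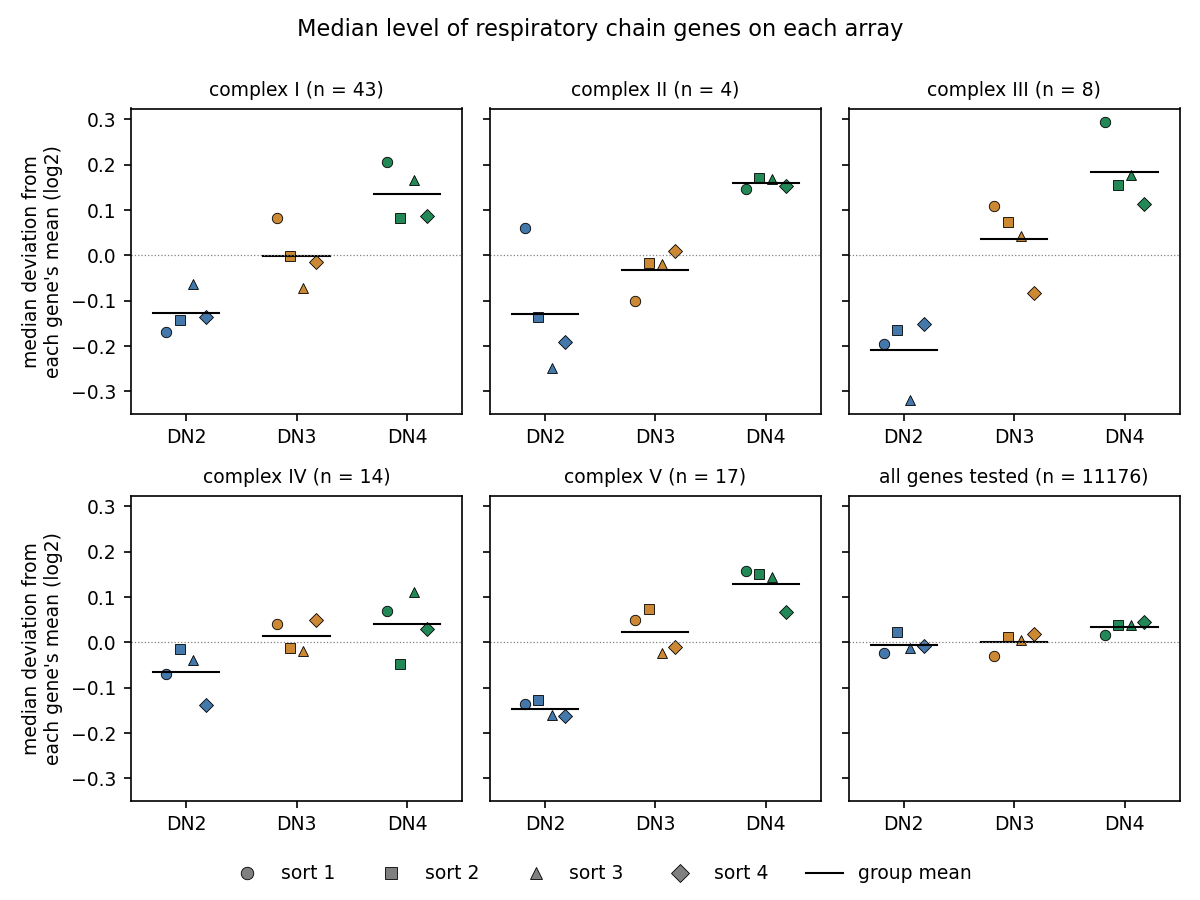
Median deviation of each complex's genes from their own means (y axis, log2 units) on each array, by stage (x axis); symbols are sorts 1 to 4 and bars are means of 4 arrays. Complexes I, III and V step up from DN2 to DN4 with the DN4 samples above all DN2 samples, complex IV spans the smallest range of group means (-0.07 to 0.04) and all genes together stay near 0.

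Between DN2 and DN4, 30 of the 86 tested genes rose and 2 fell (limma on all genes, Benjamini-Hochberg adjusted p under 0.05), where 17.9% of all genes tested rose and 16.7% fell. The median difference of the 86 genes was 0.26 on the log2 scale against 0.06 over all genes, and 76 of them (88.4%) lay above 0 against 54.9% of all genes. Since most of these genes are bright, the share was also read among the 1880 genes with a mean log2 level over 10: 22 of the 64 members there rose, against a background of 19.2%. The 4 DN4 samples lay above all 4 DN2 samples for 31 of the 86 genes, and for 17.0% of all genes. Group means differed by less than 2-fold except for 1 gene, the falling Cox6b2.

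Each single step moved few of the genes past the threshold. From DN2 to DN3, 5 rose and 0 fell in limma, against 4.77% and 6.45% of all genes (4.04% rose among the bright ones), and 17 of the 86 had an unadjusted p under 0.05, against 2794 of the 11176 genes tested. The 5 were Ndufab1, Ndufa5 and Ndufaf6 of complex I, Uqcrq of complex III and Atp5o of complex V, and all 5 were also higher in DN4 than in DN2. From DN3 to DN4, 3 rose (Ndufaf5, Ndufa4 and Ndufa9) and 1 fell (Cox6b2), against 7.16% and 9.05% of all genes (4.84% rose among the bright ones). Samples of the later stage lay above all samples of the earlier one for 11 genes at the first step, where the background was 8.12%, and for 20 at the second, where it was 12.5%. Of the 30 genes higher in DN4 than in DN2, 22 passed at neither single step, and no gene passed at both. At the single steps the members' shares of rising genes, 5.81% and 3.49%, were close to or below the background, and from DN2 to DN4 their share was 34.9% against 17.9%.

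The samples are paired by sort, and taking the sort as a block raised the counts. With the block, 8 genes rose and 0 fell from DN2 to DN3, 14 rose and 2 fell from DN3 to DN4, and 42 rose and 4 fell from DN2 to DN4, while 9.98%, 15.4% and 24.8% of all genes rose. Adding the Gapdh 3'/5' signal ratio, a measure of RNA integrity, to the block gave 0 rises from DN2 to DN3, 10 from DN3 to DN4 (11.6%) and 24 from DN2 to DN4 (27.9%), where 1.41%, 12.02% and 16.6% of all genes rose. In DN2 that log2 ratio was 1.39 ± 0.32 (SD over 4 arrays), against 1.04 ± 0.17 for DN3 and 1.16 ± 0.21 for DN4. For this ratio the smallest exact two-sided permutation p between stages was 0.114. Median signals before normalization were 15.2 to 18.0 on the DN4 arrays and 19.7 to 25.7 on the DN3 arrays. On the log2 scale DN4 minus DN3 was -0.41 (exact permutation p = 0.0286, the smallest possible, and 0.257 when adjusted over 9 tests). Leaving out 1 array at a time gave 1 to 5 rises from DN2 to DN3 (1 without the sort 2 sample of DN2 or the sort 1 sample of DN3, 2 without the sort 1 sample of DN2, and 3 without any other 1 of the DN3 samples), 1 to 5 from DN3 to DN4 (5 without the sort 2 sample of DN2, and 1 without the sort 2, 3 or 4 sample of DN3 or the sort 1 sample of DN4) and 23 to 30 from DN2 to DN4. In these fits 3.5% to 4.8% of all genes rose from DN2 to DN3, 3.9% to 7.9% from DN3 to DN4 and 14.4% to 17.8% from DN2 to DN4. The 1 fall from DN3 to DN4 became 2 without the sort 1 or sort 4 sample of DN2 or the sort 2 sample of DN4. Without normalization between arrays, 0, 0 and 1 genes rose, where 2.61%, 0.357% and 2.56% of all genes rose. The median of all genes then moved by -0.41 from DN3 to DN4 and that of the 86 genes by -0.15.

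**Figure D2:**
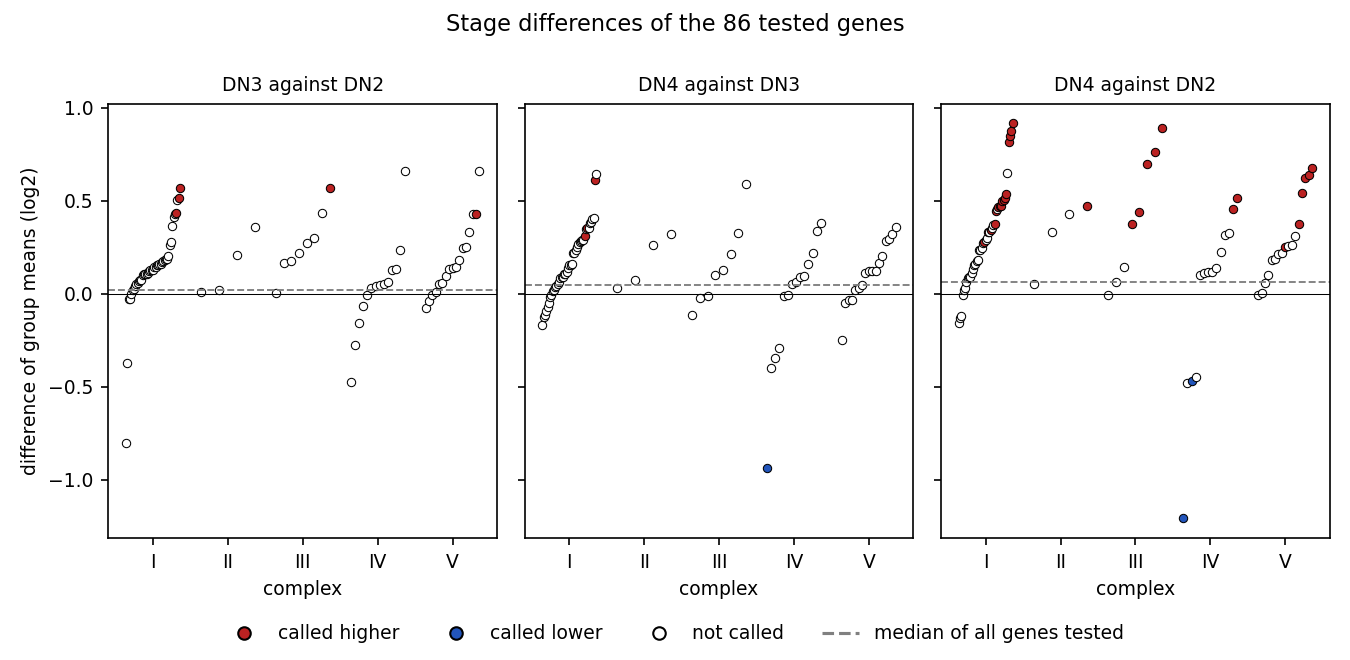
Difference of group means (y axis, log2) for each of the 86 tested genes, ordered within complexes I to V (x axis), in the 3 comparisons; filled points passed the threshold and the dashed line is the median of all genes tested. DN4 against DN2 has 30 filled points above 0, and the lowest point, at -1.21, is Cox6b2.

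Promoter sequence was set beside the shared rise for the members found in the RefSeq promoter table (build GRCm38.p6; 250 bases before to 50 after each start), which held 74 of the 90 genes. Motifs were searched as exact letters on both strands. The core of the NRF1 site, CGCANGCG, lay in windows of 27 of the 74 genes (36.5%) against 9.22% of all 27025 genes in the table, and CCGGAAG, the core bound by ETS factors such as GABPA, in 19 (25.7%) against 9.93%. Either of these was found for 38 genes (51.4%) against 17.3%. AAGATGG of YY1, which can share its first letters with the end of the ETS core, was found for 11 (14.9%) against 7.28%, and TCAAGGTCA of the estrogen-related receptors for 2 (2.70%) against 0.466%. TATAAA was found for 8 (10.8%) against 15.7%. Among genes higher in DN4 than in DN2, 11 of 25 had the NRF1 core and 4 the ETS core, and among those tested and not called, 15 of 44 had each. These matches are letters in a window, not binding.

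The 100 bases before the start are shown for 5 rising genes picked because they hold a motif there, and for the falling Cox6b2, which holds none in that stretch. This choice does not tie motifs to direction. Rising Ndufab1, Ndufaf5, Sdhb, Uqcr10, Cox7a2 and Atp5o and falling Cox7a2l also hold none there, while rising Ndufa5 holds an NRF1 core in 1 of its windows. Capitals mark the motif, and each stretch runs 5′ to 3′ on the gene's strand, which is the minus strand for all 6. The stretches are at chr4:123718187-123718286 (Ndufs5), chr2:36049339-36049438 (Ndufa8), chr10:80406822-80406921 (Uqcr11), chr5:108434400-108434499 (Atp5k), chr2:73911327-73911426 (Atp5g3) and chr7:4753095-4753194 (Cox6b2).
Ndufs5, NRF1 core: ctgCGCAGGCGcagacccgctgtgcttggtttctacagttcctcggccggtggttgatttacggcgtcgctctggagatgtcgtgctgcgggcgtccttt
Ndufa8, NRF1 core in 2 places: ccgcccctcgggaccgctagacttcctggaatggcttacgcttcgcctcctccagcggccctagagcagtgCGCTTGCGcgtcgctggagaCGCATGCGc
Uqcr11, ETS core: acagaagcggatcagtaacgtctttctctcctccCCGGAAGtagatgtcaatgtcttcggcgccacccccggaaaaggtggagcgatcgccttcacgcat
Atp5k, NRF1 core: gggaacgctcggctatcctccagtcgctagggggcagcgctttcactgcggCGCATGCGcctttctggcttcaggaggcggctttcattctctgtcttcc
Atp5g3, estrogen-related receptor motif on the opposite strand: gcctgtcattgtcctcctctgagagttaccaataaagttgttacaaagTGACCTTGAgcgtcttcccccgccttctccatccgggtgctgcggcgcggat
Cox6b2, no motif: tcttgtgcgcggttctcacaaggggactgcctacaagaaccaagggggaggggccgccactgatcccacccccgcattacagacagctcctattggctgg
The transcript of Nrf1 itself rose from 7.99 ± 0.29 in DN2 to 8.51 ± 0.20 in DN4 (SD, n = 4), a difference of 0.53 (SE 0.18, limma adjusted p = 0.0358). Gabpa differed by 0.15 (adjusted p = 0.478) and Esrra by 0.34 (adjusted p = 0.231), and neither passed.

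In complex I, which takes electrons from NADH, 16 of 43 tested genes rose from DN2 to DN4 and none fell, with a median difference of 0.29. The rising share was 37.2%, against 17.9% of all genes tested. These counts go by symbol and so include Ndufa4 and Ndufa4l2. The other genes divide into core subunits, which carry the catalytic centres, accessory subunits, which surround them, and assembly factors, which are not in the finished enzyme. Among core subunits 1 of 6 rose (median 0.25), among accessory subunits 10 of 27 (median 0.28) and among assembly factors 4 of 8 (median 0.51). No test compared these classes with each other.

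The assembly factor Ndufaf6 had normalized log2 levels of 7.72, 7.53, 8.08 and 7.87 in DN2 (sorts 1 to 4), 8.30, 8.29, 8.23 and 8.45 in DN3, and 8.82, 8.49, 8.74 and 8.82 in DN4. Its 3 stages did not overlap, and it rose 1.89-fold from DN2 to DN4 (log2 difference 0.92, SE 0.13, adjusted p = 2.63e-04) and by 0.52 (adjusted p = 0.0259) from DN2 to DN3, a first-step call kept in 7 of 12 fits with 1 array left out. Ndufaf5, which modifies a core subunit during assembly, had levels of 7.34, 7.47, 7.72 and 7.56 in DN2, 7.83, 7.60, 7.82 and 7.89 in DN3, and 8.57, 8.37, 8.28 and 8.37 in DN4. Most of its difference stood at the second step, with DN4 above all other samples (DN4 against DN3 0.61, SE 0.12, adjusted p = 0.00463; DN4 against DN2 0.88, adjusted p = 1.47e-04). Ndufaf7 and Ndufaf2 also rose from DN2 to DN4, by 0.51 (adjusted p = 0.0217) and 0.51 (adjusted p = 0.0307). Ndufaf1 differed by 0.65, Ndufaf4 by 0.37, Ndufaf8 by 0.09 and Ndufaf3 by 0.07, and these 4 did not pass.

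Ndufab1, the mitochondrial acyl carrier protein, is both a subunit of complex I and a carrier in fatty acid synthesis. It read 9.64, 9.95, 10.23 and 9.95 in DN2, 10.65, 10.48, 10.36 and 10.55 in DN3, and 10.98, 10.68, 10.74 and 10.78 in DN4, with no overlap between any of the stages. It rose by 0.57 from DN2 to DN3 (SE 0.13, adjusted p = 0.0162) and by 0.85 from DN2 to DN4 (adjusted p = 4.62e-04). Its next probe set by signal differed by 0.04 from DN2 to DN3 and by 0.51 from DN2 to DN4. Both calls were lost when probe sets with names ending in _x_at, _s_at or _a_at were left out (adjusted p = 0.947 and 0.0855). In the mean of all its probe sets the first step was 0.19 (adjusted p = 0.312). The accessory subunit Ndufs5, whose promoter stretch is printed above, read 7.63, 7.88, 8.29 and 7.89 in DN2, 8.43, 8.34, 8.19 and 8.45 in DN3 and 9.06, 8.78, 8.58 and 8.52 in DN4. DN4 lay above both other stages, and it rose by 0.82 from DN2 to DN4 (SE 0.16, adjusted p = 0.00193).

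The only core subunit that rose was Ndufs1, which carries several of the iron-sulfur clusters and is named here after its values were seen. It read 10.08, 10.17, 9.78 and 10.12 in DN2, 10.31, 10.13, 10.20 and 10.26 in DN3 and 10.68, 10.54, 10.45 and 10.61 in DN4. DN2 and DN3 overlapped and DN4 lay above both (DN4 against DN2 0.54, SE 0.11, adjusted p = 0.00307). The membrane arm subunits Ndufa1, Ndufc2 and Ndufa3 were among the brightest of the complex, and none passed (0.09, 0.16 and 0.11 from DN2 to DN4). Ndufa9 differed by -0.03 from DN2 to DN3 and rose by 0.31 from DN3 to DN4 (adjusted p = 0.0489), a call that held in 2 of the 12 fits with 1 array left out. Ndufa5 rose at the first step (0.43, adjusted p = 0.0436), also kept in 2 of 12, and then differed by 0.04. The other accessory subunits that rose from DN2 to DN4 were Ndufv3 (0.50), Ndufa8 (0.47), Ndufb8 (0.44), Ndufs4 (0.37), Ndufa10 (0.34) and Ndufc1 (0.33), most of them also named after their values were seen. The calls of Ndufs4 (0.14, adjusted p = 0.452) and Ndufa10 (0.11, adjusted p = 0.664) were lost in the mean of all probe sets, and Ndufs4 held in 7 of 12 fits with 1 array left out, Ndufa10 in 9 and Ndufc1 in 8.

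Ndufa4 was named for complex I and is now placed in complex IV. It read 10.44, 10.55, 10.71 and 10.71 in DN2, 10.78, 10.68, 10.68 and 10.71 in DN3 and 11.14, 11.03, 11.08 and 11.02 in DN4, with DN4 above all other samples. It rose by 0.35 from DN3 to DN4 (SE 0.10, adjusted p = 0.0288) and by 0.47 from DN2 to DN4 (adjusted p = 0.00303). The first of these calls held in 5 of 12 fits with 1 array left out and was lost with median-centred arrays and without normalization (0.01, adjusted p = 0.973), and the other held in all 12. Its relative Ndufa4l2 was dim, with values from 3.27 to 5.45 over the 12 arrays, and did not pass. The probe set of Ndufb4 lay below the filter on every array.

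Complex II, which oxidizes succinate and belongs to the citric acid cycle as well, had 1 rising gene of 4 and a median difference of 0.38 from DN2 to DN4. The rising share was 25%, against 17.9% of all genes tested. Sdhb, the iron-sulfur subunit, read 11.76, 11.69, 11.51 and 11.41 in DN2, 11.84, 11.81, 11.74 and 11.82 in DN3, and 12.13, 12.10, 12.04 and 11.99 in DN4. DN4 lay above all other samples, and the rise from DN2 was 0.47 (SE 0.10, adjusted p = 0.00414). Sdha, the flavoprotein that carries the catalytic site, differed by 0.05 (SE 0.11, adjusted p = 0.732). The membrane anchors Sdhc and Sdhd differed by 0.43 (adjusted p = 0.227) and 0.33 (adjusted p = 0.0586). With the sort as a block, 3 of the 4 genes rose from DN2 to DN4, where 24.8% of all genes tested rose.

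Complex III, which passes electrons from ubiquinol to cytochrome c, had 5 rising genes of 8 and a median difference of 0.41. The rising share was 62.5%, against 17.9% of all genes tested. Uqcr11, a small subunit, read 9.81, 10.24, 9.91 and 10.15 in DN2, 10.44, 10.77, 10.30 and 10.35 in DN3, and 11.03, 10.73, 10.60 and 10.79 in DN4. All DN3 and DN4 samples lay above all DN2 samples, DN3 and DN4 overlapped, and the rise from DN2 to DN4 was 0.76 (SE 0.15, adjusted p = 0.00182). Uqcrq, another small subunit, read 9.94, 9.36, 9.39 and 9.68 in DN2, 10.40, 10.14, 10.06 and 10.04 in DN3, and 10.41, 10.29, 10.24 and 10.22 in DN4. Most of its rise stood at the first step (0.57, SE 0.14, adjusted p = 0.0218), with 0.70 from DN2 to DN4 (adjusted p = 0.0026). It did not pass from DN2 to DN3 in the means of all its probe sets (adjusted p = 0.0704). Both calls were lost when probe sets with names ending in _x_at, _s_at or _a_at were left out. Its next probe set by signal, which was dim, differed by 0.25 from DN2 to DN3 and by 0.49 from DN3 to DN4. Uqcr10 read 7.39, 7.59, 7.19 and 8.15 in DN2, 8.07, 7.81, 7.74 and 7.89 in DN3 and 8.75, 8.37, 8.15 and 8.62 in DN4. Its highest DN2 sample, from sort 4, overlapped the lowest DN4 sample, and the rise was 0.89 (SE 0.20, adjusted p = 0.00457).

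The Rieske iron-sulfur protein Uqcrfs1 rose by 0.44 from DN2 to DN4 (SE 0.12, adjusted p = 0.0128), and the core protein Uqcrc1 by 0.38 (adjusted p = 0.0361). The other core protein, Uqcrc2, differed by 0.14 and did not pass. Uqcrb lay between 13.28 and 13.48 on all 12 arrays at its brightest probe set and differed by -0.01 (SE 0.09). Its next probe set differed by 0.30.

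**Figure D3:**
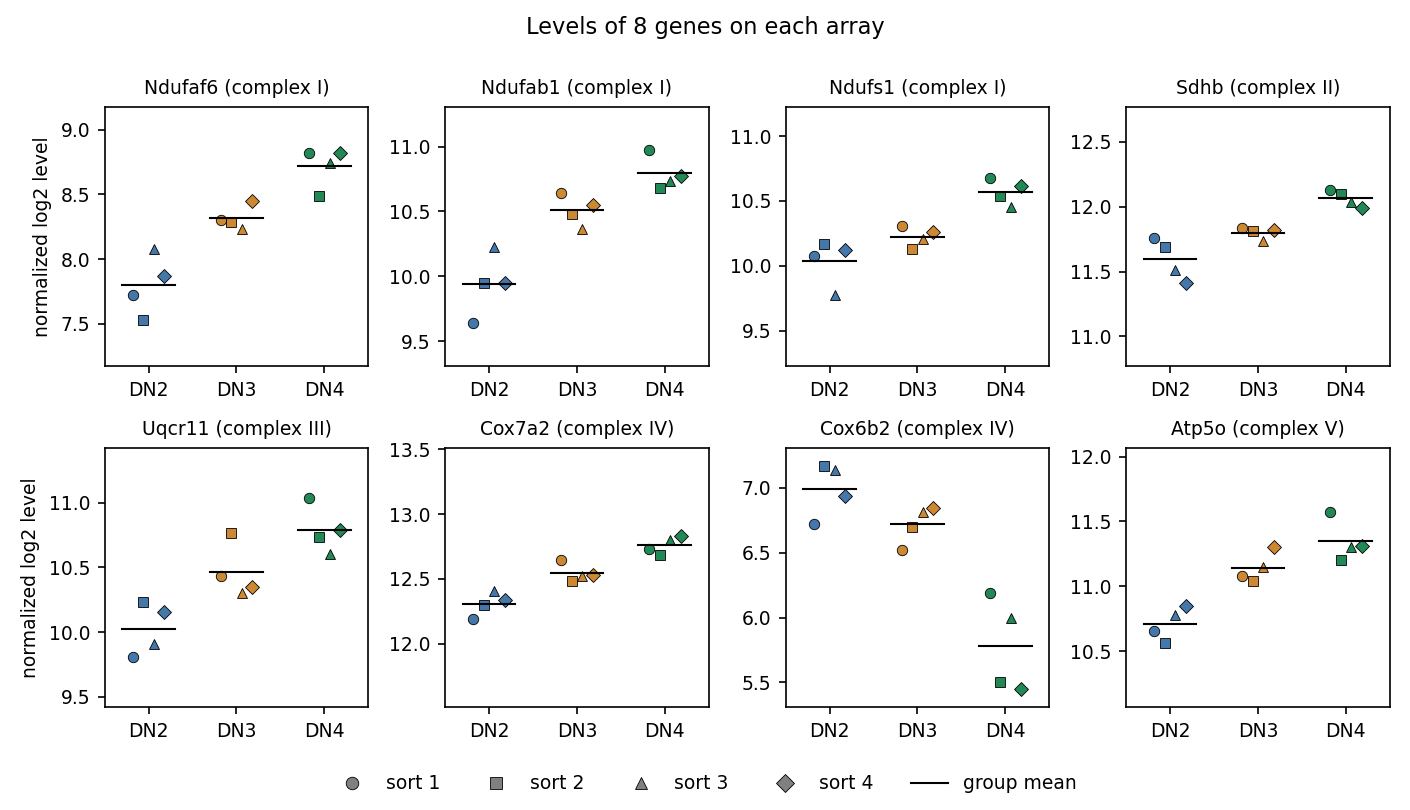
Normalized log2 level (y axis, arbitrary scale of each probe set) of 8 genes on each array by stage (x axis); symbols are sorts 1 to 4 and bars are means of 4 arrays. In the 7 rising genes all DN4 samples lie above all DN2 samples, and in Cox6b2 all DN4 samples, 5.45 to 6.19, lie below all others.

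Complex IV, cytochrome c oxidase, had 2 rising and 2 falling genes of 14 tested, with a median difference of 0.12 from DN2 to DN4. The rising share was 14.3%, where 17.9% of all genes tested rose and 16.7% fell. These counts go by symbol, so they include Cox7a2l and leave out Ndufa4, which rose. Several subunits of the complex exist as isoforms from separate genes. Of the widely expressed forms, Cox7a2 rose and the others did not pass. Cox7a2 read 12.19, 12.30, 12.41 and 12.34 in DN2, 12.65, 12.48, 12.52 and 12.53 in DN3, and 12.73, 12.68, 12.80 and 12.83 in DN4. Its 3 stages did not overlap, and the rise from DN2 to DN4 was 0.45 (SE 0.09, adjusted p = 0.00301). Cox4i1, Cox5a, Cox5b, Cox6a1, Cox6b1 and Cox6c differed by 0.11, 0.10, 0.12, 0.22, 0.12 and 0.14, and Cox8a by 0.33. Cox7c differed by -0.45 (SE 0.33, adjusted p = 0.322) and at its other probe set by -0.34.

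Forms known mainly from other tissues were dim. Cox4i2, Cox7b2 and Cox8b lay below the filter on every array. The muscle and heart forms Cox6a2 and Cox7a1 differed by -0.48 (adjusted p = 0.0805) and 0.32 (adjusted p = 0.449). Cox8c, a testis form, read 5.06, 5.64, 5.62 and 5.54 in DN2, 5.37, 5.65, 5.64 and 5.74 in DN3 and 5.60, 6.00, 5.96 and 6.35 in DN4, with overlap between DN2 and DN4. It rose by 0.51 (SE 0.18, adjusted p = 0.0386), and the call held in 6 of 12 fits with 1 array left out.

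Cox6b2, the testis form of subunit VIb, was 1 of the 2 genes that fell. It read 6.72, 7.17, 7.14 and 6.94 in DN2, 6.52, 6.70, 6.81 and 6.84 in DN3, and 6.19, 5.50, 6.00 and 5.45 in DN4. DN2 and DN3 overlapped and every DN4 sample was lower than both. It fell by 0.94 on the log2 scale from DN3 to DN4 (SE 0.18, adjusted p = 0.00448) and by 1.21, or 2.31-fold, from DN2 to DN4 (adjusted p = 2.81e-04). Both calls held in all 12 fits with 1 array left out. The common form Cox6b1 differed by 0.12 in the same comparison.

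Cox7a2l, a relative of Cox7a2, was the other gene that fell. It read 12.86, 12.68, 12.70 and 12.40 in DN2, 12.70, 12.67, 12.46 and 12.54 in DN3, and 11.94, 12.41, 12.25 and 12.16 in DN4. DN4 lay below all DN3 samples and overlapped DN2 only through 1 sample, that of sort 4. It fell by 0.47 from DN2 to DN4 (SE 0.13, adjusted p = 0.016) and by 0.40 from DN3 to DN4, which did not pass (adjusted p = 0.0581). Its next probe set differed by -0.59 in the same comparison, while the call was lost when arrays were centred on their medians instead of quantile normalized.

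In complex V, 6 of 17 genes rose from DN2 to DN4 and none fell, with a median difference of 0.25. The rising share was 35.3%, against 17.9% of all genes tested. In the catalytic F1 head 1 of 5 genes rose, in the peripheral stalk 1 of 4, in the proton-carrying c-ring 2 of 3, and among the accessory subunits of the membrane part 2 of 5. Atp5o, the stalk subunit that contacts the head, read 10.65, 10.56, 10.78 and 10.85 in DN2, 11.08, 11.04, 11.14 and 11.30 in DN3, and 11.57, 11.20, 11.30 and 11.31 in DN4. DN2 lay below all other samples, and the rise was 0.43 at the first step (SE 0.12, adjusted p = 0.0317) and 0.64 from DN2 to DN4 (adjusted p = 0.00131). Its next probe set differed by 0.75 from DN2 to DN4. The first-step call held in 7 of 12 fits with 1 array left out and was lost in the mean of all probe sets (adjusted p = 0.106).

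The c-ring is built from 1 mature protein encoded by 3 genes. Atp5g1 read 9.66, 10.04, 9.54 and 9.57 in DN2, 10.82, 10.58, 9.95 and 10.10 in DN3, and 10.90, 10.40, 10.10 and 10.13 in DN4. DN4 lay above DN2, and sorts 1 and 2 lay above sorts 3 and 4 in each stage; it rose by 0.68 from DN2 to DN4 (SE 0.22, adjusted p = 0.034), a call lost in the mean of all probe sets (0.34, adjusted p = 0.099). Atp5g3 rose by 0.25 (SE 0.09, adjusted p = 0.046), a call kept in 1 of 12 fits with 1 array left out, and Atp5g2 differed by 0.22 (adjusted p = 0.216).

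Atp5k and Atp5mpl, accessory subunits of the membrane part, rose by 0.62 (SE 0.13, adjusted p = 0.00251) and 0.54 (SE 0.16, adjusted p = 0.0224). Atp5k read 10.82, 11.21, 11.14 and 11.09 in DN2, 11.57, 11.52, 11.25 and 11.25 in DN3, and 11.73, 11.79, 11.72 and 11.51 in DN4, so DN2 lay below all other samples. At its next probe set it differed by 0.15, which did not pass (adjusted p = 0.688). Of the F1 head, only the small subunit Atp5e rose (0.38, adjusted p = 0.0192). The catalytic pair Atp5a1 and Atp5b differed by 0.31 (adjusted p = 0.0777) and 0.26 (adjusted p = 0.0923), and Atp5c1, Atp5h and Atp5pb by 0.06, -0.01 and 0.10.

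Many members have more than 1 probe set, and the next by signal often had a more positive DN4 minus DN2 difference than the brightest, which the rule takes. In 44 members at least 2 probe sets passed the filter on all 12 arrays. The next probe set by signal had the more positive DN4 minus DN2 difference in 30 of the 44 (68.2%), and the median difference was 0.20 at the brightest and 0.28 at the next. Without regard to sign, the median size was 0.22 at the brightest and 0.31 at the next. Among other genes the next probe set had the more positive difference in 61.7%, and in 67.2% of those whose brightest signal was over 1000. These bright genes had medians of -0.01 and 0.08, and median sizes of 0.26 and 0.32. Ndufa5 differed by 0.47 and 1.15, Sdhd by 0.33 and 0.83, Atp5pb by 0.10 and 0.55, and Cox6a1 by 0.22 and 0.54. The opposite order held for Atp5a1 (0.31 and 0.04) and Sdhc (0.43 and 0.01), and Atp5c1 differed by 0.06 and -0.58. Across the 86 members, the size of the DN4 minus DN2 difference was smaller at higher levels (Spearman rho -0.491 across genes, which are not independent), and over all genes tested rho was -0.154.

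**Figure D4:**
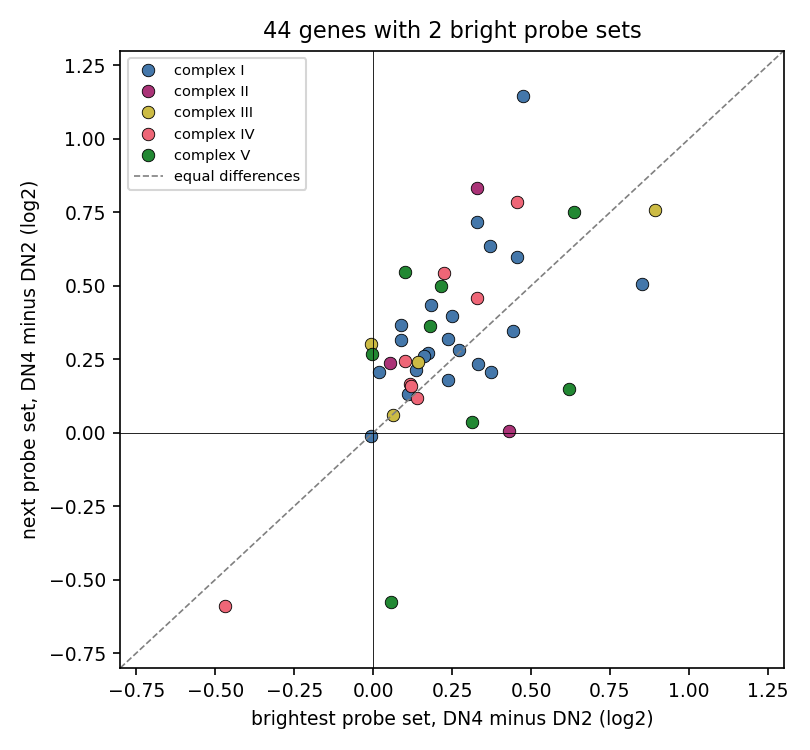
DN4 minus DN2 difference (log2) at the next probe set (y axis) against that at the brightest probe set (x axis) for 44 genes, coloured by complex; the dashed line marks equal differences. In all, 30 points lie above the line, and Cox7a2l is the point low on both axes (-0.47 and -0.59).

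Some members differed between sorts as well as, or more than, between stages. Sorts 1 and 2 stood apart from sorts 3 and 4, a division that no label names, and for 8 of the 86 genes (9.30%) the 6 samples of one pair of sorts did not overlap the 6 of the other, against 3.70% of all genes tested. A mean difference over 0.5 between the pairs was less frequent in the members, 5 of 86 (5.81%) against 9.42%. Cox8a, the widely expressed form of subunit VIII, read 9.09, 9.05, 7.98 and 7.94 in DN2, 9.20, 8.86, 8.25 and 7.70 in DN3 and 10.06, 9.20, 8.48 and 7.63 in DN4. Sorts 1 and 2 were higher by 1.24 on average over the stages, while DN4 and DN2 differed by 0.33 (SE 0.49). Ndufa6 was higher by 0.79 in sorts 1 and 2, while Sdhc and Cox7c had mean differences of -0.61 and -0.81, and the pairs of sorts overlapped in Cox7c. Ndufa6 and Cox7c are named here after their values were seen.

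**Figure D5:**
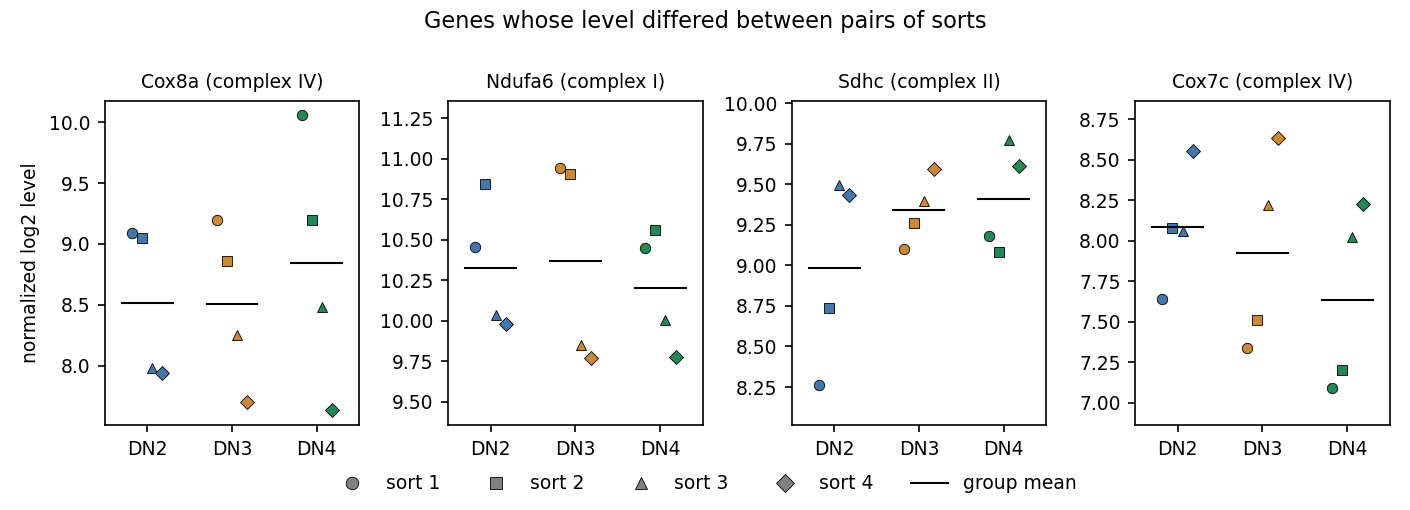
Normalized log2 level (y axis) of 4 genes on each array by stage (x axis); symbols are sorts 1 to 4 and bars are means of 4 arrays. In Cox8a and Ndufa6 the circles and squares (sorts 1 and 2) lie above the triangles and diamonds (sorts 3 and 4) at every stage, and in Sdhc they lie below.

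Within each pair of sorts the set kept its direction with fewer calls. In sorts 1 and 2 the median differences of the 86 genes were 0.18 from DN2 to DN3, 0.11 from DN3 to DN4 and 0.28 from DN2 to DN4, with 0, 0 and 9 genes rising (10.5% from DN2 to DN4, against 6.88% of all genes). In sorts 3 and 4 they were 0.07, 0.12 and 0.23, with 0, 0 and 11 rising (12.8% against 9.002%). The same medians over all genes tested were -0.01, 0.05 and 0.04 in the first pair and 0.03, 0.04 and 0.07 in the other.

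Genes that serve the respiratory chain without being members were read from lists. Over all genes tested, 17.9% rose and 16.7% fell from DN2 to DN4, and no test compared a list with these shares. Of assembly factors of complexes II to V and some of complex I, 13 of 37 tested rose from DN2 to DN4 and 1 fell (median 0.37), among them Uqcc2 of complex III assembly (0.73, adjusted p = 4.03e-04), Tmem70 of ATP synthase assembly (0.66, adjusted p = 0.00323) and Acad9 of complex I assembly (0.66, adjusted p = 0.00356); the 1 that fell was Pet100 (-0.33, adjusted p = 0.03). Of the citric acid cycle and pyruvate dehydrogenase genes, 9 of 18 rose and none fell (median 0.38). Pdhx, a structural part of pyruvate dehydrogenase, rose by 1.42 (adjusted p = 3.33e-06) and passed at both steps, as did Dlat (1.02, adjusted p = 1.81e-04).

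Of electron carriers and related subunits, 2 of 8 rose and none fell (median 0.22): Coq7, an enzyme of ubiquinone synthesis (0.84, adjusted p = 0.00233), and Cycs, cytochrome c (0.58, adjusted p = 0.037). Of adenine nucleotide carriers and uncoupling proteins 1 of 7 rose, Slc25a4 (0.53, adjusted p = 0.00595), where 17.9% of all genes tested rose. Of regulators of mitochondrial biogenesis, 6 of 22 rose and 1 fell (median 0.12). Polg, the mitochondrial DNA polymerase, rose by 1.29 (adjusted p = 4.66e-05), Ppargc1b, a coactivator, by 1.05 (adjusted p = 0.00176), and Myc fell by 1.40 (adjusted p = 0.0205). At the single steps these lists had 0 to 3 rising genes each from DN2 to DN3 and 0 to 5 from DN3 to DN4, where 4.77% and 7.16% of all genes tested rose.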

How the data were processed

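RNA of sorted thymocytes was amplified in 2 cycles of cDNA synthesis and hybridised to 12 Affymetrix mouse arrays, per the labels' protocols. The authors deposited 1 intensity value per probe set and array, on a linear scale. They used GCOS according to the submitters' processing notes; for its version, signal method and scaling, nothing is given in the sources used here.

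Of 45101 probe sets, 64 controls were dropped and 34945 had 1 symbol. Signals were quantile normalized, an offset of 5.56 (the table's 25th percentile) was added and log2 taken. Normalization follows from median signals that differed between arrays, and it removes any change of total mRNA. Genes above log2 4.71 (the table's median) on at least 4 arrays were kept, 11176 in all. The 3 stages were fitted together in limma 3.58.1 under R 4.3.3 (lmFit, eBayes, two-sided), with p-values adjusted by Benjamini-Hochberg over all genes tested at a threshold of 0.05. Fold changes are on the log2(signal + offset) scale. Array measures were compared by exact permutation tests (smallest possible p 0.0286 for 4 against 4). The fit was run on simulated data with noise independent between arrays, which leaves out the correlation within a sort. The number of arrays limits the precision.

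Samples of 1 number share their cell source, per the labels, and their deviations from stage means correlated at 0.250 to 0.340 (at most 0.108 between other samples), so the sort was used as a block in an alternative. The other alternatives concerned normalization, offset, filter, probe set choice, array weights, eBayes settings, sort pairs and single arrays.

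The members and lists were chosen with earlier results of these data known. Named members were, per complex, comparison and direction, up to 4 called genes of smallest adjusted p moving the same way in all sorts, up to 3 of the brightest, isoform families, all Sdh genes, genes that are not subunits, and genes with disagreeing probe sets. Genes outside the members were up to 3 called genes per list. Motif searches, the comparison of probe sets and that of sort pairs were added after the data were seen. Python 3.11.15, pandas 2.3.3 and matplotlib 3.10.9 were used for promoters and figures.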

Additional observations from a re-analysis of the deposited data

Results flagged for a closer look

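In 6 of 123 groups of 4 samples examined, 1 sample stood far from the other 3, where chance sets apart about 1 in 20 groups. In Atp5mpl the DN2 sample of sort 1 read 9.06, with the others at 9.63 to 9.70, and the DN4 sample of sort 2 read 10.35, with the others at 9.93 to 9.99. In Ndufa9 the DN3 sample of sort 4 read 11.13, with the others at 10.97 to 10.99. In Ndufaf2 the DN4 sample of sort 3 read 8.18, with the others at 8.49 to 8.54. In Uqcrc1 the DN3 sample of sort 1 read 11.04, with the others at 11.41 to 11.43. The median deviation of complex V was 0.07 in the DN4 sample of sort 4 and 0.15 to 0.16 in the other DN4 samples.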

How the results depend on the processing

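The counts below give genes rising from DN2 to DN3, rising and falling from DN3 to DN4, and rising and falling from DN2 to DN4; they were 5, 3, 1, 30 and 2 in the report. With the sort as a block, which pairs the samples, they were 8, 14, 2, 42 and 4, and with the block and the Gapdh ratio together 0, 10, 2, 24 and 1. Without normalization between arrays they were 0, 0, 4, 1 and 2, and with arrays centred on their medians 8, 2, 1, 42 and 2. In these 2 settings the rises from DN2 to DN4 were 1.16% of the members against 2.56% of all genes, and 48.8% against 13.8%. With centred arrays 6.2% of all genes rose from DN2 to DN3 and 2.3% from DN3 to DN4. No filter gave 1, 1, 1, 18 and 2, and a filter at the 75th percentile 5, 7, 1, 34 and 1. Their rises from DN2 to DN4 were 20% of the members against 8.57% of all genes, and 42.5% against 24%. At the single steps 1.9% and 2.3% of all genes rose without a filter, and 7.2% and 11.6% with the higher filter. Means of all probe sets gave 1, 4, 1, 34 and 2. Leaving out probe sets with names ending in _x_at, _s_at or _a_at gave 1, 2, 2, 23 and 1, with 67 members tested. Here the rises from DN2 to DN4 were 39.5% of the members against 17.8% of all genes, and 34.3% against 17.3%. At the single steps 4.9% and 6.8% of all genes rose with the means, and 4.5% and 6.7% with the probe sets left out. Fitting only the 8 arrays compared gave 3, 7, 1, 23 and 2, the trend and robust settings 8, 9, 2, 38 and 2, and array weights 4, 5, 1, 32 and 2. For these the rises from DN2 to DN4 were 26.7%, 44.2% and 37.2% of the members, against 16.3%, 18.7% and 17.7% of all genes. In the same order, 4.4%, 5.7% and 5.5% of all genes rose from DN2 to DN3. From DN3 to DN4 the shares were 8.5%, 8.1% and 9.4%. Sorts 1 and 2 alone gave 0, 0, 0, 9 and 0, and sorts 3 and 4 alone 0, 0, 0, 11 and 1, on fewer samples. At the single steps 0.8% and 0.3% of all genes rose in sorts 1 and 2, and 1.3% and 0.3% in sorts 3 and 4. Without 1 array at a time the ranges were 1 to 5, 1 to 5, 1 to 2, 23 to 30 and 2 to 3. The shares of all genes rising were then 3.5% to 4.8%, 3.9% to 7.9% and 14.4% to 17.8% in the 3 comparisons. Without normalization the members' median from DN3 to DN4 turned to -0.15 and Ndufa9 differed by -2e-04 there; the cause was not tested. Under every setting run, the members' median exceeded that of all genes tested in all 3 comparisons, by 0.04 to 0.40. The other offsets kept every count, and no member fell from DN2 to DN3 under any setting run. The depth of an array has no counterpart in read counts, and the smallest single-step difference that passed with 4 samples a stage was 0.31.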
